A study of Mus musculus with 2 samples.

Results

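The caveolin and cavin genes of the mouse encode the coat of caveolae, the small flask-shaped pits of the plasma membrane. The 7 genes (Cav1, Cav2 and Cav3, and Cavin1 to Cavin4) were taken by symbol through their gene identifiers, and all 7 were found among the 43346 mouse genes in the tables of both libraries. The tissue was whole heart of B6NCrl embryos at embryonic day 11.5, profiled by total RNA sequencing in 2 libraries made from pools of hearts of both sexes. Replicate 1 came from 109 embryos and the labels give no number for replicate 2. Each library was made from 10 ng of RNA with spike-in RNAs added. The labels record separate biosamples under the same donor identifier, and there is 1 group of healthy embryos, so no comparison between conditions exists. The tables held 37617442 expected counts for replicate 1 and 27642765 for replicate 2.

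Caveolins are hairpin membrane proteins that oligomerise in the inner leaflet of the plasma membrane, and cavins are cytoplasmic coiled-coil proteins that assemble on them into the coat. Cav1 is needed for caveolae outside striated muscle, as in endothelium, fibroblasts and smooth muscle, whereas Cav3 is the caveolin of striated muscle. Cav2 joins Cav1 in mixed oligomers. Cavin1 is needed for caveolae in all tissues studied, while Cavin2, Cavin3 and the muscle form Cavin4 modify the coat. Caveolae buffer membrane tension, and in the adult heart they are abundant in both endothelium and cardiomyocytes.

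Upstream windows are shown for the starts that the results turn on. These are the starts of Cav1-201 (upstream) and Cav1-202 (internal), the main Cav1 transcripts, and of Cav3 and Cavin4, muscle forms far apart in level. Each is the 250 bases before an annotated start, 5′ to 3′ on the plus strand, from RefSeq on GRCm38.p6, the assembly of mm10. The window of the Cav1 upstream start lies at chr6:17306085-17306334, that of the Cav1 internal start at chr6:17307390-17307639, Cav3 at chr6:112459255-112459504 and Cavin4 at chr4:48663264-48663513. The internal window lies within the Cav1 gene, downstream of the starts of Cav1-201, Cav1-203 and Cav1-206. Capitals mark matches, on either strand, to the motifs described next.
Cav1 upstream start: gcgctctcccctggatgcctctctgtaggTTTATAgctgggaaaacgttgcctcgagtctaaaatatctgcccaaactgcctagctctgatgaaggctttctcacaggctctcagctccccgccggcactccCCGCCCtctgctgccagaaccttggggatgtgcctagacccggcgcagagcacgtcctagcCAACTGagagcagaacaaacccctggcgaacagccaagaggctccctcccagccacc
Cav1 internal start: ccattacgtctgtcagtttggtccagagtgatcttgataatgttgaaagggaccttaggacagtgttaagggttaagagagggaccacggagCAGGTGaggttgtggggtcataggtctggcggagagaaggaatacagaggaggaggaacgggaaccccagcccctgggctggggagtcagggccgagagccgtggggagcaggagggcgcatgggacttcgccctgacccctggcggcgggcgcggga
Cav3: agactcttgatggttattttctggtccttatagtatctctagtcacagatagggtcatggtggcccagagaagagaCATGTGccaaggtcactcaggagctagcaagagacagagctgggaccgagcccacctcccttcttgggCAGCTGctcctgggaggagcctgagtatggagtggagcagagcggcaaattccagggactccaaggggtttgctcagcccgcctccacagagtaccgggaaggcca
Cavin4: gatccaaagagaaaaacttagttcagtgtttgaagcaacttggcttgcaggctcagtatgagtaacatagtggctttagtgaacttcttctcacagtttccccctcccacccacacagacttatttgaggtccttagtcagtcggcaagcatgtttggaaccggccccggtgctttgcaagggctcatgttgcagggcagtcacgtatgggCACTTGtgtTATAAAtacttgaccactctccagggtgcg

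Both strands of each window were searched for the letters of 6 motifs. The TATA box was spelled TATAAA and the GC box GGGCGG. The E-box was spelled CANNTG, and the CCAAT box by its own letters. The motif of GATA factors was spelled AGATAA and the muscle M-CAT motif CATTCC. The CArG box and MEF2 motif of muscle promoters were also searched. Cavin4 held a TATA box from -30 to -25 relative to its start, with an E-box from -39 to -34. The Cav1 upstream window held a TATA box match from -221 to -216 and a GC box from -118 to -113, both on the minus strand, and an E-box from -57 to -52, and the internal window held an E-box from -158 to -153. Cav3 had E-boxes from -174 to -169 and from -106 to -101, and none of the other letters. The matches do not overlap each other. Of all 32851 promoter windows of this length in the table, 12.4% held the TATA box, 32.7% the GC box, 33.9% the CCAAT box, 9.99% the GATA motif, 12.6% the M-CAT motif and 66.2% an E-box, so an E-box is common at this length. No CArG box or MEF2 motif lay in these 4 windows, against 1.47% and 2.92% of all windows. Such a match is a description of the letters and no evidence of binding.

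The windows also differed in base composition. The ratio of observed to expected CpG was 0.47 and 0.59 before the upstream and internal starts of Cav1 and 0.43 before Cav2, above the median of 0.37 over all windows. It was 0.34 before Cavin4, 0.21 before Cav3 and 0.20 before Cavin2. The window of Cavin1 (0.44) is not shown, because it lies within the Cavin1 exon of the annotation that the symbols came from.

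Of the members, 6 were expressed at readily measured levels and the muscle form Cavin4 lay just under the detection level on the deposited scale. Levels are in TPM (read abundance corrected for transcript length and library total), as mean ± SD over the 2 libraries (n = 2). Genes that reached 1 TPM in each library were called detected. By that rule 6 of the 7 members were detected, where the share over all protein-coding genes was 56.4%. The order by mean was Cavin1, Cavin3, Cavin2, Cav1, Cav3, Cav2 and Cavin4. With 2 libraries the smallest exact two-sided sign-flip p is 0.5, so levels are given as descriptions with no test.

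**Figure D1:**
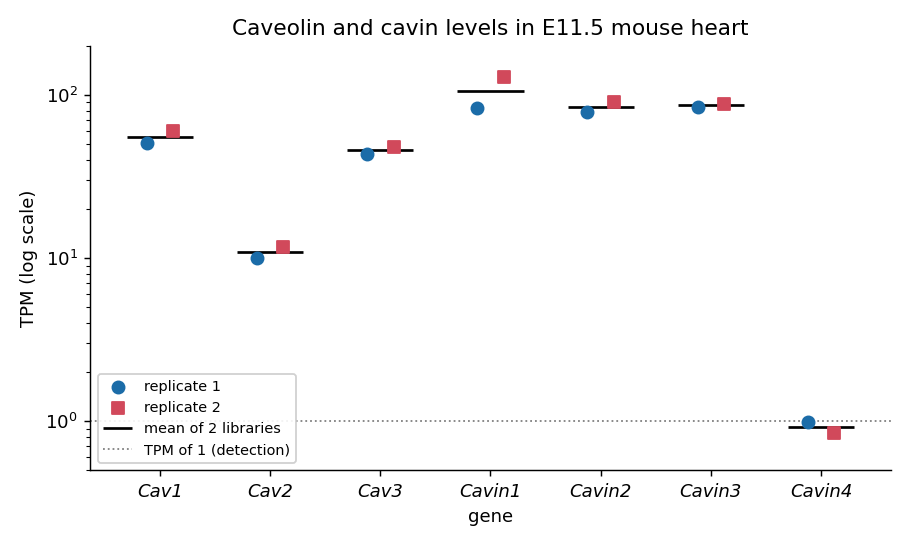
TPM on a log axis for each caveolin and cavin gene, with circles for replicate 1, squares for replicate 2, bars for the mean and a dotted line at the detection level of 1 TPM. Cavin1, Cavin2 and Cavin3 overlap at the top, Cav1 and Cav3 follow, Cav2 lies near 10.9 TPM, and Cavin4 falls below the line at 0.99 and 0.84 TPM.

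Cav1, on chromosome 6 from 17306335 to 17341452 (gene identifier ENSMUSG00000007655), had 50.8 TPM in replicate 1 and 60.1 TPM in replicate 2, from 3397 and 2877 expected counts. Its mean of 55.4 ± 6.57 TPM stood above 89.8% of all protein-coding genes. Cav2, whose protein depends on Cav1 to leave the Golgi, lies 17219 bases upstream on the same strand, from 17281185 to 17289115. It had 10.1 and 11.8 TPM in replicates 1 and 2, a mean of 10.9 ± 1.21, from 702 and 570 counts. Cav1 exceeded Cav2 by 5.05-fold in replicate 1 and 5.10-fold in replicate 2, a log2 ratio of 2.34 ± 0.01. The ratio of Cavin2 to Cav2, on different chromosomes, varied as little (7.80-fold and 7.71-fold, log2 ratio 2.96 ± 0.01).

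Cav3, the muscle caveolin, lies on the same chromosome from 112459505 to 112472872. It had 43.7 TPM in replicate 1 and 47.8 TPM in replicate 2, a mean of 45.8 ± 2.88, from 1324 and 1022 counts. Each library placed Cav1 above Cav3, by 1.16-fold and 1.26-fold, and the ranges of these genes did not overlap. Within the summed TPM of the caveolins, 104.5 in replicate 1 and 119.6 in replicate 2, Cav1 held 49.4% ± 1.16, Cav3 40.9% ± 1.32 and Cav2 9.73% ± 0.153. Transcripts of Cav1 and of the striated muscle caveolin therefore stood side by side in this tissue. In bulk RNA, fewer cells of a type and less RNA per cell cannot be told apart, so these shares are not shares of cells.

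Cavin1 (older symbol Ptrf), the cavin that forms the core of every coat complex, lies on chromosome 11 from 100956733 to 100970887. It had 83.2 TPM in replicate 1 and 129 TPM in replicate 2, a mean of 106 ± 32.7, from 8047 and 8848 counts. Its spread between the libraries, 30.8% of its mean, was the widest of the 7, where the others ranged from 3.56% for Cavin3 to 11.9% for Cav1. Cavin2 (older symbol Sdpr), which binds phosphatidylserine and bends membranes, lies on chromosome 1 from 51289126 to 51302960. It had 78.4 and 90.8 TPM in replicates 1 and 2, a mean of 84.6 ± 8.70. Cavin3 (older symbol Prkcdbp), named for its binding to protein kinase C delta, lies on chromosome 7 from 105480083 to 105482300. It had 84.3 and 88.6 TPM, a mean of 86.4 ± 3.08.

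These 3 cavins could not be ordered. Their ranges overlapped in all 3 pairs, and Cavin1 lay 1.46-fold above Cavin3 in replicate 2 but marginally below it in replicate 1 (83.2 against 84.3 TPM). Of all 21 pairs of members, the other 18 had ranges that did not overlap. The smallest step among those neighbours was that from Cav1 down to Cav3 at 1.21-fold, and the step from Cavin2 down to Cav1 was 1.53-fold. Without the length correction the place of the short Cavin3 transcript changes, to 65.4 CPM in replicate 1 and 66.2 CPM in replicate 2 (scaled to the mouse gene total of each library), below Cav1 at 98.6 and 114 CPM.

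Cavin4 (older symbol Murc), the cavin of cardiac and skeletal muscle, which localises to the sarcolemma and T-tubules, lies on chromosome 4 from 48663514 to 48673502. It had 0.99 TPM from 55 counts in replicate 1 and 0.84 TPM from 33 counts in replicate 2, a mean of 0.915 ± 0.106. That mean depends on the genes TPM is scaled over: it was 1.10 when rescaled over mouse genes and 1.40 over nuclear protein-coding genes without globins, both above the detection level. The exact 95% Poisson intervals of those counts are 41.4 to 71.6 and 22.7 to 46.3, and cover counting error only. Cavin4 therefore had reads in both libraries and yet stood 11.9-fold below Cav2, the next lowest member. Cav3, the caveolin of the same muscle cells, exceeded it by 44.2-fold in replicate 1 and 56.9-fold in replicate 2 (log2 ratio 5.65 ± 0.26). Cavin4 held 0.336% ± 0.0917 of the summed TPM of the cavins, while Cavin1, Cavin3 and Cavin2 held 37.8% ± 5.74, 31.4% ± 3.90 and 30.5% ± 1.74. The cavins together came to 247 TPM in replicate 1 and 310 TPM in replicate 2, which is 2.36 and 2.59 times the caveolin sum.

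Reads were assigned to members with little ambiguity. The posterior SD of the count in the deposited tables was 0 for every member in both libraries, except 0.2 reads for Cavin1 in replicate 1. The strand setting of the counting is not given in the sources used here. Among genes annotated across the members, the antisense Gm15581 over Cav1 and Cav2 was listed at 0 counts in both libraries, and the antisense 9330175M20Rik over Cavin2 had 3 and 2 counts. Gm45667, over the start of Cavin3 on the other strand, had no entry in the deposited tables. Reads from it could not be assigned to it, and the posterior SD of Cavin3 does not cover them.

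Transcript values divided Cav1 and left the others nearly whole. Cav3-201, Cavin2-201, Cavin3-201 and Cavin4-201 are the single transcripts of their genes in the tables, with 2 exons each, and Cavin1-201 held 99.9% and 100% of Cavin1 in replicates 1 and 2. Cav2-201, which encodes 162 codons, held 89.2% and 86.9% of Cav2, and the shorter Cav2-202 10.8% and 13.1%, from 27.1 counts in each library. Of 10 annotated Cav1 transcripts, 8 had counts. Cav1-201, from the upstream start, held 62.8% and 59.9% of Cav1 TPM in replicates 1 and 2. Cav1-202, whose annotated start lies 1305 bases downstream in the intron after the opening exon, held 29.2% and 33.2%.

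The alternative starts of Cav1 matter to its protein, since Cav1-201 encodes 178 codons and Cav1-202 encodes 147, 31 fewer at the amino end. These lengths are those of the alpha and beta forms of caveolin-1. Protein was not measured, so shares of transcripts are not shares of these forms. All 6 transcripts that begin within 100 bases of the upstream start together held 69.6% and 65.2% of Cav1 TPM in replicates 1 and 2, and the 4 with later starts 30.5% and 34.8%. In both libraries the upstream group was the larger, by 2.28-fold and 1.87-fold, and its mean share was 67.4% ± 3.10. The transcripts overlap in their later exons, so this division is that of the authors' model. The exon of Cav1-202 includes intron sequence next to the second exon of Cav1-201, and in total RNA unspliced Cav1 RNA can give such reads. Its part in the share was not tested. The upstream group alone had 35.3 and 39.1 TPM in replicates 1 and 2, below Cav3 at 43.7 and 47.8 TPM. The place of Cav1 above Cav3 therefore rests on counting the later starts too.

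**Figure D2:**
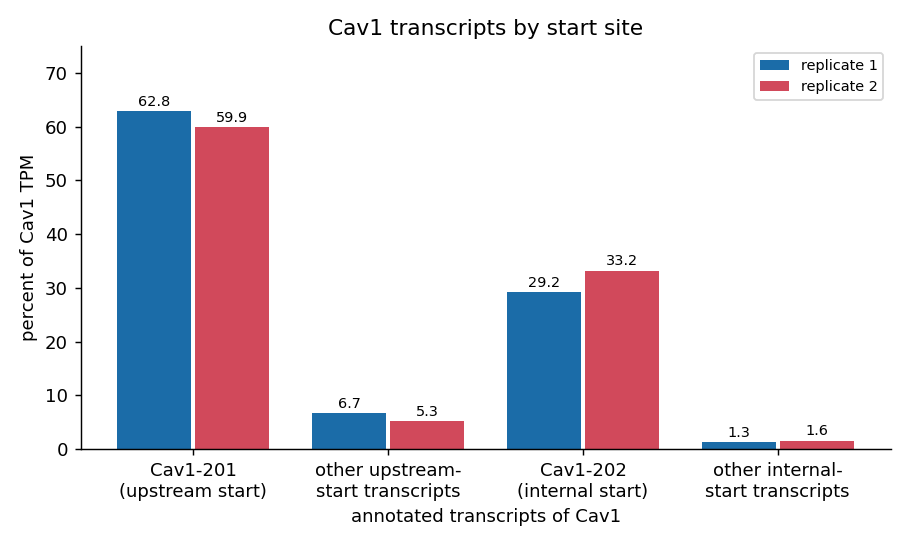
Percent of Cav1 TPM (vertical axis) in Cav1-201, in the 5 other transcripts from the upstream start, in Cav1-202 and in the 3 other transcripts from internal starts, with a bar for each library. Cav1-201 is the tallest in both libraries at 62.8% and 59.9%, and Cav1-202 follows at 29.2% and 33.2%.

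The libraries were then compared gene by gene, which measures how closely they matched and no condition. Differences between the pools and between library preparations cannot be told apart. Counts were scaled by TMM library sizes and set against each other by an exact two-sided binomial test over 16621 genes, with Benjamini-Hochberg adjustment. Ratios are log2 of replicate 1 over replicate 2. With the adjusted p below 0.05 and the fold at least 2, 0 of the 7 members were called in either direction. Of all genes tested, 4.69% were called so, 3.32% higher and 1.37% lower in replicate 1. On the adjusted p alone, with no fold threshold, 3 members, Cavin1, Cav1 and Cavin2, were lower in replicate 1, where 21.2% of all genes were lower and 39.6% differed in either direction. The same 3 members were those at an unadjusted p under 0.05, where 46.5% of all genes passed. The test covers counting error alone and compares these libraries.

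Cavin1 had the largest difference of the 7, a log2 ratio of -0.59 by the exact binomial test (adjusted p = 2.38e-153), or 1.51-fold more in replicate 2. Of the 1662 genes in its decile by count, 98.3% had a smaller difference in either direction. Cav1 (-0.21, adjusted p = 4.91e-08) and Cavin2 (-0.16, adjusted p = 1.10e-08, both by the exact binomial test) differed by less, with 78.0% and 66.4% of genes of like count closer to 0. Cav2, Cav3, Cavin3 and Cavin4 had log2 ratios of -0.15, -0.08, -0.02 and 0.27, with adjusted p from 0.127 to 0.723 by the exact binomial test. Cavin4, the member with the fewest counts, was the only one of the 7 higher in replicate 1 by TPM.

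**Figure D3:**
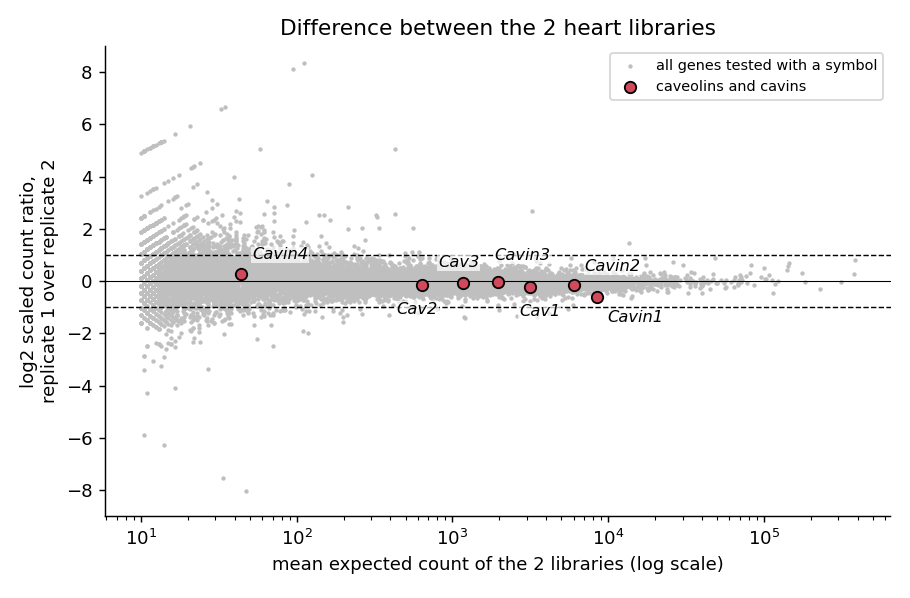
Log2 ratio of scaled counts, replicate 1 over replicate 2, against the mean expected count on a log axis, for all tested genes with a symbol (grey) and the caveolins and cavins (red), with dashed lines at a fold of 2. All 7 members lie between the dashed lines, and Cavin1 is farthest from 0 at -0.59.

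Markers of other tissues and cell types were compared between the libraries too. No endothelial, mesenchymal or cardiomyocyte marker was called at a fold of 2, where 4.69% of all genes were. By the exact binomial test Emcn, Sox9 and Nkx2-5 had adjusted p of 0.115, 0.787 and 0.549. The other markers of these lists fell below 0.05, as did 39.6% of all genes. All 6 endothelial and endocardial markers (Plvap, Emcn, Tek, Pecam1, Cdh5 and Kdr) had log2 ratios below 0, from -0.53 to -0.09, with summed levels of 289 TPM in replicate 1 and 345 in replicate 2. All 5 mesenchymal markers (Col3a1, Col1a1, Postn, Sox9 and Pdgfra) were also below 0, from -0.44 to -0.02, with sums of 483 and 591 TPM. The 6 cardiomyocyte markers, from Actc1 at 9392 ± 340 TPM to Ryr2 at 17.1 ± 3.32, with Tnnt2, Myh7, Myh6 and Nkx2-5 between them, ranged from -0.47 to 0.45 in log2 ratio, with sums of 14300 and 15450 TPM, and so had no single direction. The ratio of Cavin1, -0.59, lay below that of each endothelial, mesenchymal and cardiomyocyte marker. Adgre1 of the macrophage list (-0.71) and Myf5 of the skeletal muscle list (-0.63), neither of them detected, lay lower still. The smooth muscle markers ranged from -0.22 to 0.42 and those of epicardium from -0.15 to 0.11. All 4 markers of liver and yolk sac endoderm (Afp, Apoa1, Alb and Ttr) were called higher in replicate 1, with sums of 141 and 24.2 TPM. Of all genes, 3.32% were called so. Of 3 lung markers Nkx2-1 was called higher in replicate 1, at 1.20 and 0.19 TPM from 74 and 8 counts. Ager went the other way without a call (-0.39, with 2.34 and 3.36 TPM), and Sftpc had too few counts to be tested. The part of these differences in those of Cavin1, Cav1 and Cavin2 was not tested.

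The labelled tissue was checked against its markers. All 6 cardiomyocyte markers were detected, as were the 4 of epicardium (Upk3b, Tcf21, Wt1 and Tbx18) and the 4 of smooth muscle (Acta2, Tagln, Cnn1 and Myh11). By the same rule 56.4% of all protein-coding genes were detected. Of the smooth muscle markers, Acta2, Tagln and Cnn1 had means of 1234, 223 and 178 TPM. Myh11 only just reached the detection level, at 1.30 and 1.00 TPM in replicates 1 and 2. Which cells these transcripts came from was not tested. Of 5 skeletal muscle markers 3 were detected (Tnnt3, Ckm and Myog), led by Tnnt3 at 11.8 TPM in replicate 1 and 12.1 TPM in replicate 2. The myogenic factors Myod1 (1.14 and 0.65 TPM) and Myf5 were not, and the list summed to 22.8 and 24.6 TPM. Which cells the transcripts of the skeletal muscle list came from was not tested, nor was their part in the level of Cav3. The macrophage markers C1qb, Csf1r and Adgre1 (2 of 3 detected) summed to 17.4 and 16.1 TPM, and the lung markers Ager, Nkx2-1 and Sftpc (1 of 3) to 3.64 and 3.55. Adipocytes, which are rich in caveolae in the adult, left almost no trace: Plin1, Cidec and Lep were listed at 0 counts in both libraries and Adipoq at 4 and 0, where a count of 0 allows a level of up to 0.0871 CPM in replicate 1 and 0.119 CPM in replicate 2 (3 counts of the mouse gene total).

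Transcripts for proteins that shape or anchor caveolae were detected alongside those for the coat. All 12 accessory genes passed the detection level, where 56.4% of all protein-coding genes did. The accessory genes had a median of 11.0 TPM, where detected protein-coding genes had a median of 16.0 and the 7 members 55.4. Ehd4 and Ehd1, ATPases of the EHD family that hold membrane necks, had 72.6 ± 6.30 and 53.4 ± 7.91 TPM. The fission GTPase gene Dnm2 had 46.6 ± 2.88 TPM and the membrane-bending F-BAR gene Pacsin2 37.0 ± 3.46. Ehd2, the family member best known at the neck of caveolae, chosen after its values were seen, was lower at 11.1 and 16.8 TPM in replicates 1 and 2. Ehd4 thus exceeded it 5.32-fold (log2 ratio 2.41 ± 0.55). Dnm3, a dynamin of neurons and testis, was the lowest at 1.40 ± 0.389.

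Flotillins, which form flat membrane domains without caveolin, stood at levels close to those of Cav1 and Cav3. Flot1 had 54.5 ± 1.61 TPM and Flot2 47.6 ± 2.82. Of their relatives with the same conserved domain, Stoml2, a mitochondrial protein, had 187 ± 1.34, Stom 31.6 ± 3.53 and Stoml1 11.1 ± 0.948. Stoml3, known from sensory neurons, had 3 counts in each library. Of these 6 genes 5 were detected, where 56.4% of all protein-coding genes were.

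Clathrin with its AP2 adaptor coats the other main endocytic pit, and its heavy chain gene stood above Cav1 and Cavin1 in both libraries. All 8 clathrin and AP2 adaptor genes were detected, where 56.4% of all protein-coding genes were. The 8 had a median of 84.6 TPM, from Cltb at 28.2 ± 0.997 to Ap2m1 at 265 ± 7.62. Ap2s1 had 190 ± 0.212 and Clta 117.5 ± 2.93. The heavy chain gene Cltc, at 154.5 ± 21.9 TPM, exceeded Cav1 by 2.78-fold (log2 ratio 1.48 ± 0.03) and Cavin1 by 1.48-fold (0.57 ± 0.25).

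Of 12 genes for signalling proteins reported to bind caveolins 10 were detected, where 56.4% of all protein-coding genes were. The median over all 12 was 15.6 TPM. The receptor genes Bmpr1a, Tgfbr1 and Insr led at 35.3 ± 0.502, 31.6 ± 6.63 and 29.7 ± 3.15 TPM. Nos3, the endothelial nitric oxide synthase that Cav1 holds inactive, followed at 15.8 and 22.5 TPM in replicates 1 and 2, and Nos2 and Nos1, the inducible and neuronal forms, were not detected, with 8 and 4 counts for Nos2 (named after its values were seen) and 1 and 14 for Nos1. Of 12 genes of the muscle surface membrane and T-tubules, 11 were detected, against the same 56.4%. The median over all 12 was 26.2 TPM. Popdc2 and Bves, cAMP-binding membrane proteins of muscle, had 223 ± 11.6 and 73.0 ± 8.43 TPM, the dystroglycan gene Dag1 96.4 ± 18.3 and the sodium-calcium exchanger gene Slc8a1 91.9 ± 7.89. Trim72, a membrane repair protein of adult striated muscle, was the exception at 0.71 and 0.38 TPM in replicates 1 and 2. It and Cavin4 lay under 1 TPM as deposited, while Cav3 did not. None of the tested genes on these 5 partner lists was called between the libraries at a fold of 2, where 4.69% of all genes were. Trim72 came nearest, at a log2 ratio of 0.94 (adjusted p = 0.0445 by the exact binomial test). Stoml3, Nos1 and Nos2 had too few counts to be tested.

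**Figure D4:**
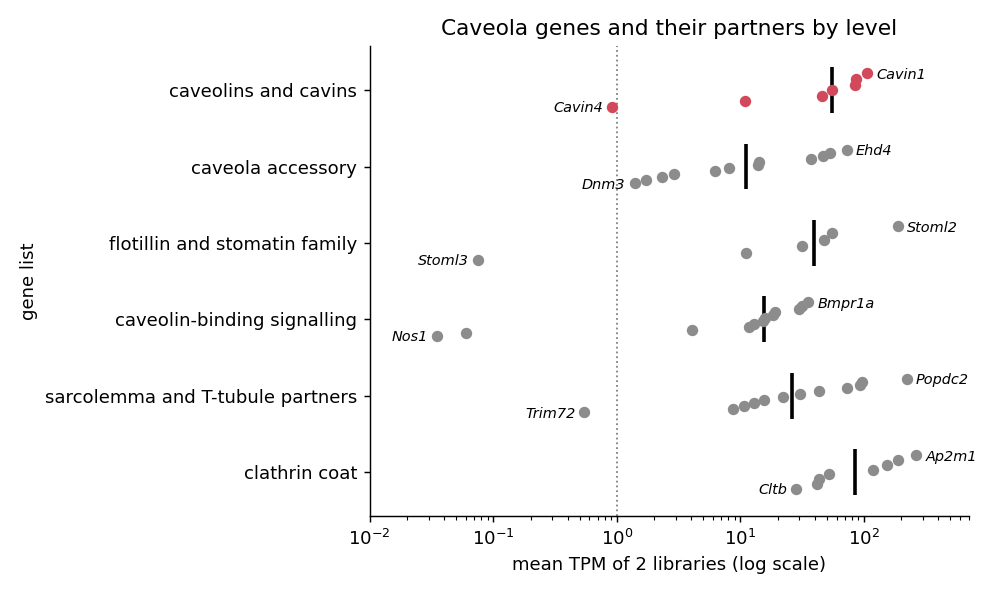
Mean TPM of the 2 libraries on a log axis for the caveolins and cavins (red) and the genes of 5 partner lists (grey), with a bar at each list's median, a dotted line at 1 TPM and the highest and lowest gene of each list named. The members' median of 55.4 TPM lies between those of the clathrin coat (84.6) and the flotillin and stomatin family (39.6).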

How the data were processed

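Total RNA of 2 libraries of embryonic mouse heart (1 group) was quantified by the authors. Per the file headers, the deposited tables hold expected counts (estimated reads, not normalized), TPM (whose total takes in the spike-in and tRNA entries), posterior means and SDs, and the percent of a gene's TPM in each transcript. The README texts deposited beside them name mm10 and annotation release M4. The aligner, quantifier, their versions and the strand setting were not given in the sources used here. The labels mention a SmartSeq protocol. Nothing beyond the labels shows that the pools are biological replicates, so the SD may be partly technical.

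Symbols, coordinates and codon counts came by identifier from GENCODE M21 on GRCm38, the assembly of mm10, and 42462 of 43346 mouse genes (98.0%) matched. Spike-in and tRNA entries held 8.43% of the expected counts of replicate 1 and 8.61% of those of replicate 2, and were left out of library sizes and tests. Counts were rounded to whole numbers, and genes with a summed count of 20 or more were compared by exact binomial test (scipy 1.17.1), with TMM sizes from edgeR 4.0.16 in R 4.3.3 and 0.5 added to each count for ratios. The test was tried on simulated data that held planted differences and counting error alone, so the trial does not cover variation between libraries. DESeq2 1.42.0 size factors were an alternative. Python 3.11.15, numpy 2.4.6 and pandas 2.3.3 were used.

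The members and the gene lists were chosen with earlier results of these data known. All members are named, and of the other lists the 4 highest and the lowest gene, or every gene where a list has 6 or fewer. 1 marker list is not reported here. Any other gene named was chosen after its values were seen. A protein comparison planned for the members was not made because no protein sequences were used here. Promoter windows matched 6 of the 7 members by symbol, in 8 windows. No gene with a pattern like that of a member was sought, since 2 libraries of 1 group give none.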

Additional observations from a re-analysis of the deposited data

How the results depend on the processing

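The order of the members was the same with posterior mean TPM, and the shares of the Cav1 starts moved by less than the spread between libraries with posterior mean percents. With either library alone, values are those of that library, which says nothing of their stability. Levels depend on what TPM is scaled over. Rescaled over mouse genes alone, the mean of Cavin1 was 127.6 TPM. The other means on that scale were 66.4 TPM for Cav1, 13.1 for Cav2, 54.9 for Cav3, 101 for Cavin2, 104 for Cavin3 and 1.10 for Cavin4. Over nuclear protein-coding genes without globins they were 84.6, 16.7, 69.9, 129, 132 and 1.40, and 162 for Cavin1. On both scales the mean of Cavin4 passes the detection level of 1. Without the length correction no neighbouring ranges overlapped (0 pairs), and the log2 ratio of Cavin3 to Cav1 reversed to -0.69, the count of the shorter transcript being lower. On that scale the log2 ratio of Cav1 to Cav2 was 2.31, of Cav1 to Cav3 1.43, of Cav3 to Cavin4 4.77, of Cavin1 to Cavin3 2.12 and of Cavin3 to Cavin2 -1.62. With 1 added to each TPM, the ratio of Cav1 to Cav2 was 2.24 and that of Cav3 to Cavin4 4.61, and with posterior mean TPM that of Cav1 to Cav2 was 2.36, the cause of which was not tested. In the comparison of the libraries, 551 genes were called higher and 228 lower in replicate 1. Without a fold threshold there were 3056 and 3524, and with a summed count of 1 or more 726 and 415. DESeq2 size factors or plain totals moved no member across the threshold. No paired analysis was possible because the study has 1 group. No result has a residual degree of freedom with 1 library left out, so those values carry no test. At the depth of these libraries Cavin4 rests on 55 and 33 counts.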
